A study of Saccharomyces cerevisiae with 94 samples.

Results

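The comparison described here is that of SSDDCS with sml1Δ at 50 min after release from G1. It used 8 of the 94 RNA-seq libraries of the series, 4 from each strain, chosen by their strain and time labels alone. The tested strain, sml1Δ SSDDCS (SSDDCS below), carried additional copies of 6 replication initiation factors driven by the divergent GAL1-10 promoter: SLD7 and CDC45 at leu2 with LEU2, SLD3 and DBF4 at his3 with HIS3 (SLD3 and DBF4 tagged A in the labels), and SLD2 and DPB11 at trp1 with TRP1. Its sml1 deletion was marked with a hygromycin gene. The control, sml1Δ, carried URA3 in place of SML1 and none of the constructs. Both strains were W303 MATa haploids with the alleles leu2-3,112, trp1-1, his3-11,15, ura3-1, ade2-1, rad5-535 and can1-100. Cultures grown in raffinose were held in G1 with alpha factor, given galactose for 30 min, and released in galactose medium. The strains therefore differed in their nutritional marker genes as well as in the factors, and effects of the markers and of the factors cannot be told apart.

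Sld2, Sld3, Dpb11, Dbf4, Cdc45 and Sld7 act when the replicative helicase is switched on at origins, and they are scarce in the cell, so that origins normally fire one group after another. Their joint excess makes late origins fire early. At the time sampled here wild-type cells are in G2 and mitosis, when the cluster of genes around the mitotic cyclin CLB2 is transcribed.

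Each value is a normalised read count, obtained by dividing the reads of a gene by the library's size factor. Differences are SSDDCS minus sml1Δ of log2(value + 1), a scale on which changes of weakly expressed genes come out too small. Reads in genes were 14795481, 9175113, 9957408 and 9558756 in the SSDDCS libraries (replicates 1 to 4, the order used throughout) and 20891076, 9487135, 9345165 and 8481368 in the sml1Δ libraries. Each library was set against the mean of the other cultures of its strain at 40, 45, 50 and 60 min. The library labelled sml1Δ replicate 4 at 50 min was nearest to 60 min (root mean square log2 distance 0.328, against 0.487 to 50 min), and the one labelled 60 min of that culture was nearest to 50 min (0.273, against 0.323 to 60 min). The library of sml1Δ replicate 1 was nearest to 45 min (0.417, against 0.505 to 50 min), as was that of SSDDCS replicate 2 (0.239, against 0.263). The other 5 libraries of 50 min were nearest to 50 min. Since the 50 and 60 min libraries of sml1Δ replicate 4 may be exchanged, values without that library are given beside the results whose call, count of calls or sign it changed.

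The 6 factors show whether the libraries match their strain labels. CDC45, the helicase cofactor, had 19316, 12829, 10962 and 19709 in SSDDCS, against 81.9, 151, 156 and 220 in sml1Δ, a difference of 6.72 (SE 0.27, limma adjusted p 6.19e-35). The other factors were higher by 3.69 (SLD3) to 6.22 (DPB11). All 6 were above every control library. DPB11, which recruits the factors phosphorylated by the S-phase kinase, was the most abundant, with 34111, 35372, 33136 and 36761 in SSDDCS, against 456, 501, 446 and 461 in sml1Δ. Of the marker genes, HIS3 was higher by 5.73 and TRP1 by 4.64, whereas LEU2 was lower by 2.32 on the log2 scale. LEU2 had 491, 529, 1465 and 724 in SSDDCS, against 2644, 3653, 4575 and 3871 in sml1Δ, whose leu2-3,112 allele still gives reads. URA3 was also lower, at 1631, 2423, 1931 and 2169 in SSDDCS, against 5778, 5695, 5626 and 3523 in sml1Δ.

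With the factors and markers left out, 580 of 6404 tested genes (9.06%) were called at 50 min (limma, adjusted p below 0.01), of which 345 (5.39%) were higher and 235 (3.67%) lower in SSDDCS. A change of at least 2-fold was seen in 156 of them, 133 higher and 23 lower. The genes that were higher had low levels in the control, with a median of 111 normalised read counts in sml1Δ, while those that were lower had a median of 900.2 and all tested genes one of 575. Their median differences were 0.78 and -0.39, against -0.02 over all genes. The 4 libraries of one strain lay clear of the 4 of the other for 308 of the higher and 188 of the lower genes. Over all tested genes this held for 911 (14.2%). Many named genes were picked among the called ones, so their separation is a description and not further evidence. Without sml1Δ replicate 4, 481 genes were called (299 higher, 182 lower), 429 of them among the 580, and with its 50 and 60 min labels exchanged 598 were called (372 higher, 226 lower). A fit with the replicate number as a block called 894 genes, of which 461 (51.6%) were higher, against 59.5% without the block. Scaling to equal library totals moved that share to 77.3% (415 higher, 122 lower), and a fit to the 8 libraries of 50 min alone called 79 genes (1.23%), 81.0% of them higher.

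**Figure D1:**
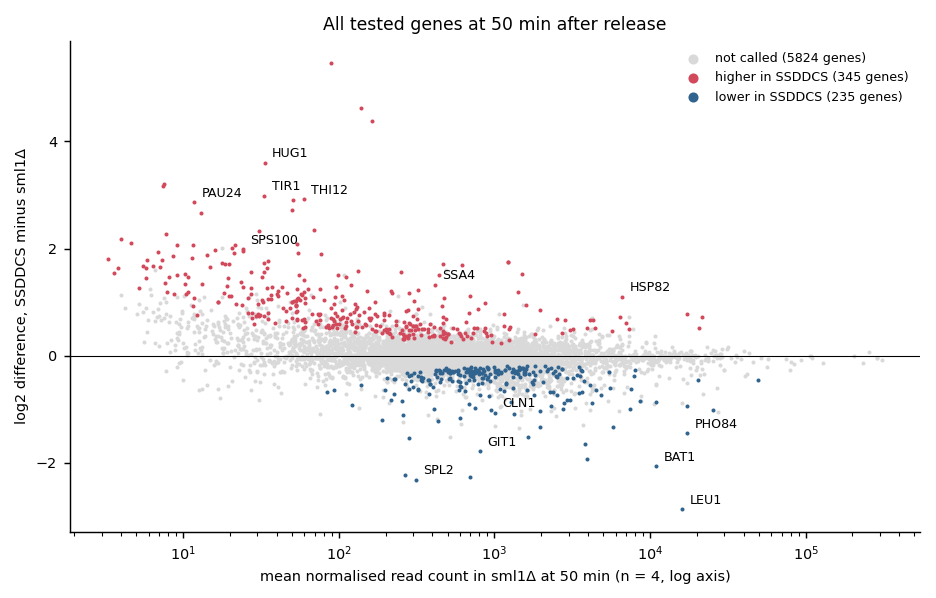
Difference between the strains at 50 min for each tested gene. The x axis is the mean normalised read count over the 4 sml1Δ libraries on a log axis and the y axis the log2 difference, SSDDCS minus sml1Δ; each point is a gene, coloured by its call, with the factors and markers left out. Most of the 345 higher genes lie at low control levels (median 111) and most of the 235 lower genes at higher levels (median 900.2).

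The largest increase outside the constructs was that of HUG1 (YML058W-A, chromosome XIII, 158760 to 158966), which codes for a small inhibitor of ribonucleotide reductase that is induced by the Mec1-Rad53 checkpoint. It had 488, 405, 275 and 524 in SSDDCS, against 38.1, 38.8, 30.2 and 26.3 in sml1Δ. The lowest SSDDCS library was far above the highest control library, and the difference was 3.60 (SE 0.34, limma adjusted p 1.14e-13). All 12 genes of the DNA damage list were positive, with a median of 0.46. Of these, 6 were called higher and none lower (50% called, against 9.06% of all tested genes). A fit to the 8 libraries of 50 min alone called 1 of the 12. RNR3, the damage-inducible large subunit of ribonucleotide reductase, had 175, 163, 161 and 235 in SSDDCS, against 84.8, 109, 103 and 77.5 in sml1Δ (difference 0.96). Its libraries did not overlap between the strains. The small subunits RNR2 and RNR4 were also called, with differences of 0.50 and 0.53, as was RAD54 (0.55), a DNA translocase of recombination. The checkpoint kinase genes RAD53 (0.08) and DUN1 (0.36), the repressor gene RFX1 (0.17), and DIN7 (0.19), MAG1 (0.42) and RAD16 (0.05), of DNA repair, did not pass the test.

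Genes of thiamine synthesis were among the largest increases. THI12 (YNL332W, chromosome XIV, 14832 to 15854), one of 4 near-identical genes for the precursor of the pyrimidine part of thiamine, had 435, 418, 283 and 797 in SSDDCS, against 43.8, 73.9, 70.4 and 51.2 in sml1Δ. Its difference was 2.92 (SE 0.26, limma adjusted p 1.29e-14), with replicate 4 the highest of SSDDCS and replicate 3 the lowest. The other copies differed by 2.92 (THI5), 1.92 (THI13) and 1.89 (THI11). Only 15.0% to 40.0% of the 50-base stretches of these 4 genes occur once in the genome, so how the reads were shared among them is uncertain. THI4, which makes the thiazole part and is unique throughout its length, had 91.6, 95.2, 71.6 and 132 in SSDDCS, against 18.2, 23.01, 30.2 and 24.9 in sml1Δ (difference 1.96). The increase was thus seen in a gene whose reads are not shared. Of 21 genes for thiamine and pyridoxine, 7 were called higher and none lower (33.3% called, against 9.06% of all tested genes). The list median was 0.23. The remaining calls were SNZ1 (0.47) and SNO1 (0.53), of pyridoxine synthesis. The regulators THI2 (0.30) and THI3 (0.10) and the transporter THI7 (0.23) did not pass. In this list 6 genes were called higher without sml1Δ replicate 4, and 5 were called in the fit to the 8 libraries of 50 min alone.

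Genes of spore formation were higher as well, although both strains were haploid and growing. Of 15 mid and late sporulation genes, 9 were called higher and none lower (60% called, against 9.06% of all tested genes). The list median was 0.93 (0.57 with quantile normalization). The number called was 3 in the fit to the 8 libraries of 50 min alone. SPS100, a spore wall protein gene, had 98.4, 95.2, 78.4 and 120 in SSDDCS, against 30.1, 25.4, 21.4 and 19.4 in sml1Δ (difference 1.99). SPS2, for another protein of the developing spore wall, had 101, 117, 77.3 and 144 in SSDDCS, against 51.8, 25.4, 23.9 and 31.8 in sml1Δ (difference 1.73). SPR28, a septin of sporulating cells, had 42.7, 80.8, 53.4 and 73.4 in SSDDCS, against 14.2, 9.69, 22.6 and 31.8 in sml1Δ (difference 1.71). These 3 were among the 8 of 15 genes in which every SSDDCS library was above every control library. Separation in either direction held for 14.2% of all tested genes. DIT1, of dityrosine synthesis for the outer spore wall, was higher by 1.48, whereas SMK1 (0.06), a sporulation kinase gene, and SPS4 (-0.33) did not pass.

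Of 22 early meiotic genes, 8 were called higher and none lower (36.4% called, against 9.06% of all tested genes). The list median was 0.46 (0.23 with quantile normalization). The number called was 6 without sml1Δ replicate 4 and 0 in the fit to the 8 libraries of 50 min alone. HOP1, a protein of the meiotic chromosome axis, had 170, 175, 119 and 199 in SSDDCS, against 86.5, 99.3, 113 and 91.4 in sml1Δ, a difference of 0.74 (SE 0.16, limma adjusted p 2.59e-04). SPO11, the enzyme that makes meiotic breaks, had 46.5, 63.9, 31.8 and 48.2 in SSDDCS, against 30.7, 21.8, 28.9 and 23.5 in sml1Δ. Its groups were separated only narrowly, between 31.8 in SSDDCS replicate 3 and 30.7 in sml1Δ replicate 1, and its difference of 0.81 became 0.65 (adjusted p 0.014) without SSDDCS replicate 2. MEK1, a kinase of the meiotic checkpoint, had 55.7, 51.8, 39.8 and 51.8 in SSDDCS, against 34.7, 31.5, 31.4 and 20.8 in sml1Δ (difference 0.74), and its call was lost without sml1Δ replicate 4 (0.59, adjusted p 0.026). The master regulator IME1 was not called. It had 45.0, 42.2, 45.5 and 60.2 in SSDDCS, against 47.8, 33.9, 46.5 and 143 in sml1Δ, where replicate 4 alone was high. The kinase gene IME2, which Ime1 switches on, had 92.3, 106, 108 and 138 in SSDDCS, against 42.1, 72.7, 60.4 and 120 in sml1Δ. Its difference of 0.67 (adjusted p 0.025) was called without sml1Δ replicate 4 (0.94, adjusted p 1.6e-03) and with the replicate block (adjusted p 4.3e-03). NDT80, the activator of the middle genes, was called at 0.43 with 213, 285, 255 and 276 in SSDDCS, against 216, 168, 186 and 188 in sml1Δ, overlapping in 1 library of each strain.

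Early meiotic genes are held off in growing cells through a short element, URS1, bound by Ume6. Its core, GGCGGC on either strand, was searched in the 500 bases before the start codon. The core was found for 13 of the 22 genes and 4 of the 8 that were called, against 548 of 5822 genes (9.41%) in all. NDT80 was not among them, although the paper marks Ume6 binding sites in its promoter. An exact match in this window can therefore miss sites. The 30-base windows around the core are shown for MEK1 (chrXV:996642-996671 and chrXV:996628-996657, minus strand, which overlap) and HOP1 (chrIX:226419-226448, plus strand), the called genes with the largest differences that hold it, in the RefSeq R64 assembly, with the core in capitals.
MEK1: aagaagaatgatGGCGGCtaaatttcggcg
MEK1: cggctaaatttcGGCGGCtatttcattcat
HOP1: gtttttaacctgGGCGGCtaaattgtactt
Of the 546 tested genes with the core, 42 were called higher and 21 lower, with a median difference of -0.01. Over all tested genes, 5.39% were called higher and 3.67% lower.

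Many genes for cell wall mannoproteins of the seripauperin family, which are induced in anaerobic growth, were higher in SSDDCS. All 15 tested PAU genes had positive differences. Of these, 10 passed the test (66.7%, against 9.06% of all tested genes) and 5 (0.50 to 1.24) did not. The median of the 15 was 1.15 (0.61 with quantile normalization). Without sml1Δ replicate 4, 8 were called, and the fit to the 8 libraries of 50 min alone called 1. PAU24, the largest of them, had 67.1, 112, 73.9 and 118 in SSDDCS, against 11.4, 14.5, 7.55 and 13.8 in sml1Δ, a difference of 2.86 (SE 0.32, limma adjusted p 4.40e-11). PAU copies are alike in sequence, with 47.1% of 50-base stretches unique in PAU24 and 0.0% in PAU21 (difference 2.01), so single members are uncertain. TIR1 (YER011W, chromosome V, 175248 to 176012), a relative induced by cold and anaerobic conditions, is 87.0% unique. It had 206, 240, 243 and 417 in SSDDCS, against 33.0, 40.0, 36.5 and 23.5 in sml1Δ (difference 2.99), with replicate 4 the highest in SSDDCS and the lowest in sml1Δ. Most PAU genes lie near chromosome ends. Within 50 kb of an end, 69 of 638 genes were called higher and 21 lower (14.1% called, median -0.00), and within 20 kb 31 were higher and 2 lower of 202 (16.3%, median 0.15). Without sml1Δ replicate 4, 64 were called higher and 17 lower within 50 kb (median 0.05). Within 20 kb the calls were then 31 higher and 3 lower (median 0.19). With quantile normalization the median within 20 kb was -0.004. Farther than 50 kb from an end, 8.84% of 5181 genes were called, with a median of -0.03. The Y′ helicase genes at the telomeres (5 tested) and the COS genes beside them (8 tested) gave no call, with medians of -0.17 (0.08 without sml1Δ replicate 4) and 0.22.

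**Figure D2:**
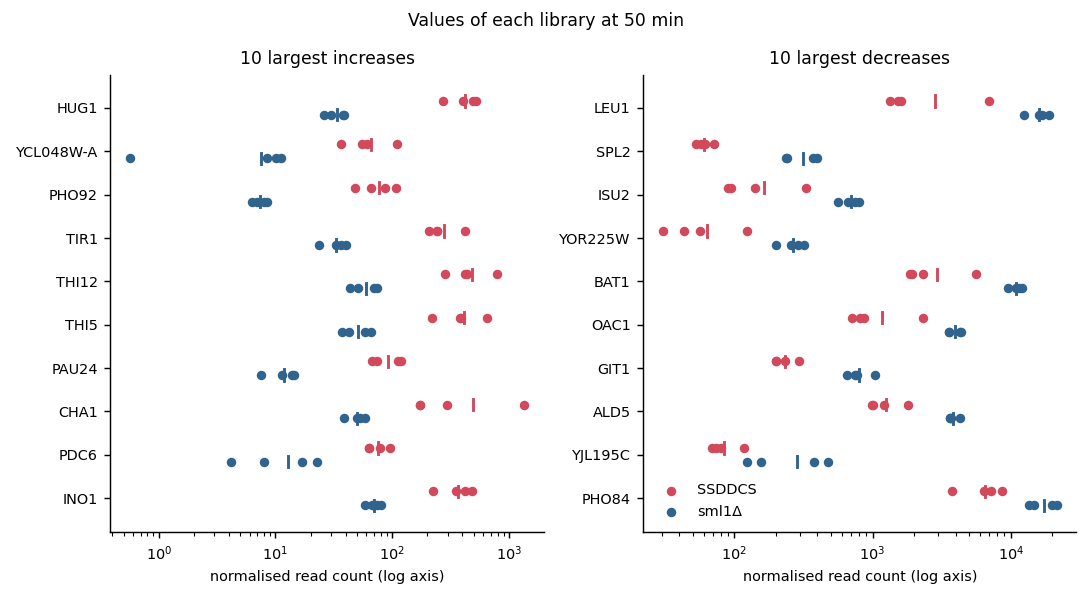
Values of each library for the called genes with the 10 largest increases and the 10 largest decreases in SSDDCS among those whose groups do not overlap, which the choice required. The x axes give normalised read counts on a log axis; each point is 1 library, SSDDCS above sml1Δ in each row, and the short bars are means over 4 libraries. SSDDCS replicate 3 is the point nearest to the control values for LEU1, ISU2, YOR225W, BAT1 and OAC1.

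Heat shock genes were higher, including abundant chaperones. Of 17 genes, 9 were called higher (8 without sml1Δ replicate 4) and none lower. That is 52.9% called, against 9.06% of all tested genes. The list median was 0.78. That median was already 0.44 in G1 and stood at 1.30 at 30 min. With the 8 libraries of 50 min fitted alone, 3 members were called. HSP82, the inducible Hsp90 chaperone, had 14460, 11777, 12119 and 18773 in SSDDCS, against 6183, 5639, 6307 and 8353 in sml1Δ, a difference of 1.10 (SE 0.16, limma adjusted p 1.62e-07). SSA4, the strictly stress-induced member of the Hsp70 family, had 1106, 886, 744 and 1622 in SSDDCS, against 399, 402, 467 and 397 in sml1Δ (difference 1.33). The constitutive Hsp70 gene SSA1 had 42051, 27665, 29910 and 42496 in SSDDCS, against 23000, 17648, 18508 and 26564 in sml1Δ (difference 0.72), but only 42.1% of its 50-base stretches are unique. BTN2, which collects misfolded proteins, had 1435, 1620, 1264 and 1765 in SSDDCS, against 721, 684, 591 and 785 in sml1Δ (difference 1.12). All 4 were among the 8 of 17 listed genes whose SSDDCS libraries all lay above the control libraries. Over all tested genes, 14.2% were separated in either direction. Members known mainly as targets of the general stress response did not pass, among them HSP12 (1.59, adjusted p 0.18) and HSP26 (1.498, adjusted p 0.13), which were spread over a wide range in the control: HSP12 had 668, 1124, 836 and 2014 in SSDDCS, against 62.6, 530, 805 and 559 in sml1Δ. The mitochondrial chaperonins HSP60 (-0.24) and HSP10 (-0.33) did not pass. Of 14 genes of storage carbohydrate and general stress, only the transketolase TKL2 was called (1.03), and the list median of -0.35 was -0.08 without sml1Δ replicate 4. The share of that list called was 7.14%, against 9.06% of all tested genes.

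Pheromone-induced genes were also higher, although the pheromone had been removed at release. Of 14, 7 were called higher and none lower (50% called, against 9.06% of all tested genes), with a median of 0.60. FIG1, a membrane protein of mating cells, had 70.2, 65.1, 42.0 and 56.6 in SSDDCS, against 29.01, 13.3, 16.3 and 5.54 in sml1Δ (difference 1.98). FUS1, of cell fusion, had 118, 106, 79.5 and 108 in SSDDCS, against 56.9, 49.6, 62.9 and 44.3 in sml1Δ (difference 0.93). The cyclin kinase inhibitor FAR1 did not pass and pointed the other way (-0.69, adjusted p 0.015). With the replicate block 2 members of the list were called lower, beside 7 higher, and without sml1Δ replicate 4 the number called higher was 5. The fit to the 8 libraries of 50 min alone called 0 members.

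The mating type given in the labels was checked with marker genes. The a-specific genes, which should be on in MATa cells, gave no call in 7, with summed values of 2622, 2296, 2523 and 2670 in SSDDCS, against 3629, 2187, 1679 and 5687 in sml1Δ. The highest sum was that of sml1Δ replicate 4. Summed values of the 4 alpha-specific genes, which should be near 0, were 671, 732, 677 and 762 in SSDDCS, against 489, 526, 503 and 479 in sml1Δ. Most of these came from SAG1, the alpha agglutinin, with 512, 551, 540 and 549 in SSDDCS, against 412, 432, 412 and 381 in sml1Δ. SAG1 was called higher (0.39, limma adjusted p 8.9e-04), as was STE3, and none of the 4 was called lower. That is 50% called, against 9.06% of all tested genes. The median of the 4 was 0.996 (0.65 with quantile normalization). STE3, the receptor for a-factor, had 83.9, 84.4, 52.3 and 126 in SSDDCS, against 22.8, 23.01, 21.4 and 17.99 in sml1Δ, a difference of 1.92 (SE 0.26, limma adjusted p 2.00e-08). MF(ALPHA)1, the alpha-factor gene, had 12.2, 25.3, 10.2 and 26.5 in SSDDCS, against 2.28, 3.63, 3.77 and 16.6 in sml1Δ. It was not called (1.599, adjusted p 0.034) but was called without sml1Δ replicate 4 (2.12, adjusted p 6.0e-03) and with the replicate block (adjusted p 8.8e-03).

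Among the other large increases, PHO92 (3.16), an RNA-binding protein of meiosis, had 66.4, 86.8, 47.7 and 108 in SSDDCS, against 7.96, 8.48, 6.29 and 6.92 in sml1Δ. PDC6 (2.67), a minor pyruvate decarboxylase, had 63.3, 78.4, 63.6 and 96.3 in SSDDCS, against 7.96, 16.95, 22.6 and 4.15 in sml1Δ. CHA1 (2.71), a serine and threonine deaminase, had 1343, 172, 173 and 294 in SSDDCS, against 50.1, 58.1, 39.0 and 52.6 in sml1Δ. The difference of CHA1 was enlarged by SSDDCS replicate 1 and was 2.04 without it (adjusted p 2.2e-04). YCL048W-A (3.21), of unknown function, had 61.0, 55.5, 36.4 and 111 in SSDDCS, against 0.569, 8.48, 10.1 and 11.1 in sml1Δ, where the lowest value is a single read. Without sml1Δ replicate 1 its difference was 2.52. INO1, the first enzyme of inositol synthesis, had 350, 417, 222 and 480 in SSDDCS, against 73.4, 79.9, 66.6 and 58.1 in sml1Δ. Its groups were well separated, but its call at 2.34 (SE 0.67, adjusted p 9.41e-03) was lost without any 1 of 7 of the 8 libraries (adjusted p 0.016 to 0.035). Of 15 hexose transporter genes, HXT14 (2.28), HXT9 (1.03) and HXT11 (0.83) were called higher and none lower (4 higher without sml1Δ replicate 4). That is 20% called, against 9.06% of all tested genes, and the fit to the 8 libraries of 50 min alone called 1. Only 38.1% of 50-base stretches are unique in HXT9 and 32.9% in HXT11, so these 2 calls may rest on shared reads. The abundant HXT7 (-0.61), HXT6 (-0.72) and HXT3 (-0.46) did not pass.

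Genes of the synthesis of the branched-chain amino acids leucine, isoleucine and valine were lower in SSDDCS. LEU1 (YGL009C, chromosome VII, 476313 to 478652), isopropylmalate isomerase, had the largest decrease of any named gene, with 1518, 1602, 6955 and 1334 in SSDDCS, against 18964, 16032, 16892 and 12403 in sml1Δ. Its difference was -2.87 (SE 0.46, limma adjusted p 1.75e-06), and SSDDCS replicate 3 stood between the other SSDDCS libraries and the control, so that it was -3.42 without that library. BAT1, the mitochondrial branched-chain transaminase, had 1937, 2304, 5622 and 1860 in SSDDCS, against 12098, 10892, 11450 and 9476 in sml1Δ (difference -2.06). OAC1, a mitochondrial carrier that exports isopropylmalate, had 711, 864, 2332 and 815 in SSDDCS, against 4289, 3580, 4350 and 3588 in sml1Δ (difference -1.92). In both genes SSDDCS replicate 3 was again the highest of its strain but below every control library. Of the 14 listed genes 9 were called lower and none higher (64.3% called, against 9.06% of all tested genes), with a median of -0.85. The others called were BAP2 (-1.32), the branched-chain permease, GDH1 (-1.01), glutamate dehydrogenase, LEU4 (-1.0002), the first enzyme specific to leucine, and ILV2 (-0.86), ILV3 (-0.85) and ILV5 (-0.46), of the shared steps. The activator LEU3 itself (-0.06) and ILV1 (0.16), ILV6 (0.03), LEU9 (-0.27) and BAT2 (-0.20) did not pass. The list was already lower in G1 (median -0.55) and at 30 min (-0.78). When the 8 libraries of 50 min were fitted alone, 4 of its genes were called. LEU2, the enzyme after Leu1, is intact only in SSDDCS, where it comes with the construct, so a working leucine pathway and the extra factors cannot be told apart in these strains.

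Leu3 activates these genes when isopropylmalate accumulates and binds an inverted repeat of CCGG. CCGG, any 2 bases and CCGG again, which is the same pattern on both strands, was found in the 500 bases before 16 of 5822 genes (0.27%), among them 6 of the 14 listed genes, all 6 of which were called lower. The windows of LEU1 (chrVII:478850-478879, minus strand) and BAT1 (chrVIII:517375-517404, plus strand), the called genes of the list with the largest differences, are shown from RefSeq R64 with the repeat in capitals.
LEU1: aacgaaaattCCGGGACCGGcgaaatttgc
BAT1: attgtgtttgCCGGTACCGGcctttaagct
Over all 16 genes, 10 were called lower and none higher, with a median of -0.61. Those outside the list were LEU2 itself (-2.32), DRE2 (-0.83), of iron-sulfur cluster assembly, GAT1 (-0.75), an activator of nitrogen genes, and BRO1 (-0.31), of endosomal sorting. The 6 that were not called were ATP5 (-0.05), NPL3 (0.10), MGM101 (-0.09), AAN1 (-0.07), GAL11 (-0.20) and FSF1 (-0.43). A match to these letters is not a measured binding site.

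The genes of the phosphate regulon, which Pho4 switches on when phosphate is scarce, were lower in SSDDCS. All 14 tested genes were negative, and the median was -0.66. Of these, 8 were called lower (57.1% called, against 9.06% of all tested genes). The list was already lower in G1 (median -0.42) and at 30 min (-0.54). Only 2 members were called in the fit to the 8 libraries of 50 min alone. SPL2 (YHR136C, chromosome VIII, 374654 to 375100), a regulator of the low-affinity phosphate transporters, had 52.6, 57.9, 61.4 and 71.0 in SSDDCS, against 373, 398, 236 and 241 in sml1Δ, a difference of -2.31 (SE 0.28, limma adjusted p 1.45e-09). PHO84, the high-affinity phosphate transporter, had 6424, 8704, 7241 and 3772 in SSDDCS, against 21491, 19845, 14795 and 13491 in sml1Δ (difference -1.45). GIT1, a glycerophosphoinositol transporter, had 201, 233, 200.01 and 295 in SSDDCS, against 772, 741, 1049 and 655 in sml1Δ (difference -1.78). These 3 were among the 8 of 14 genes that did not overlap between the strains, against 14.2% of all tested genes. The polyphosphate polymerase subunits VTC1 (-0.69), VTC2 (-0.52), VTC3 (-0.88) and VTC4 (-0.67) and the kinase inhibitor PHO81 (-0.64) made up the other calls. The acid phosphatase PHO5 (-0.51, adjusted p 0.25) and the sodium-dependent transporter PHO89 (-1.52, adjusted p 0.029) did not pass, and neither did the vacuolar phosphatase PHO8 (-0.02). The core of the Pho4 site, CACGTG, which other factors bind too, was present before 11 of the 14 genes and 7 of the 8 called ones, against 364 of 5822 genes (6.25%). The windows of SPL2 (chrVIII:375444-375473, chrVIII:375230-375259, chrVIII:375173-375202 and chrVIII:375114-375143, minus strand) and PHO84 (chrXIII:26219-26248 and chrXIII:26197-26226, minus strand, which overlap), the called genes with the largest differences that hold it, are given from RefSeq R64 with the core in capitals.
SPL2: agtatttttgctCACGTGaccgacaagggt
SPL2: aaatgatgtacgCACGTGggcgaaagttca
SPL2: tctctcttttccCACGTGctccgctctctt
SPL2: agtcactgcagcCACGTGcctagatctatt
PHO84: atttaatagttcCACGTGgacgtgttattt
PHO84: tgttatttccagCACGTGgggcggaaatta
Across the genome 19 of the 364 genes with the core were called higher and 19 lower, with a median of -0.05. The shares of all tested genes were 5.39% higher and 3.67% lower.

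ISU2, a scaffold for iron-sulfur clusters, was lower by 2.27 on the log2 scale, with 95.4, 142, 331 and 90.3 in SSDDCS, against 562, 747, 801 and 664 in sml1Δ. SSDDCS replicate 3 was again the highest of its strain. YOR225W (-2.23), a dubious reading frame next to it by systematic name, had the same pattern, and reads of both genes cannot be told apart where they overlap, since no use of strand is described. The other scaffold ISU1 did not pass (-0.35), and of the 16 listed genes of iron uptake and scaffolds only the ferric reductase FRE2 was called besides ISU2 (0.67, or 0.51 with adjusted p 0.049 without sml1Δ replicate 4). The share of the list called was 12.5%, near the 9.06% of all tested genes. ALD5, a mitochondrial aldehyde dehydrogenase, had 992, 1212, 1816 and 1009 in SSDDCS, against 3632, 3622, 4278 and 3675 in sml1Δ (difference -1.64).

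**Figure D3:**
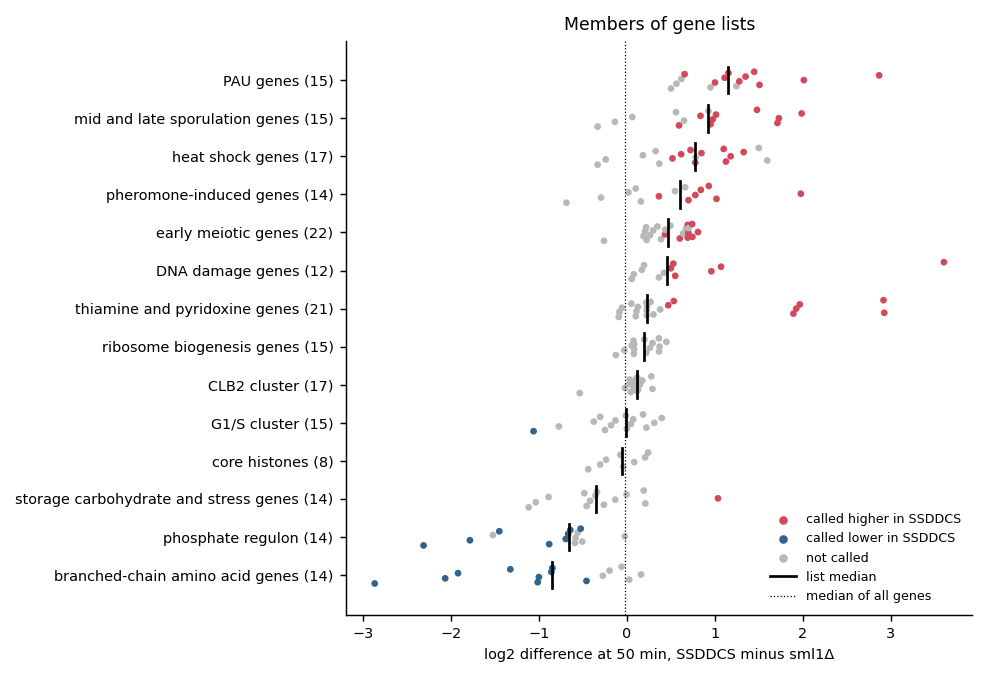
Differences of single members of 14 gene lists at 50 min, on the x axis as log2 of SSDDCS minus sml1Δ. Points are genes coloured by call, black bars list medians, the dotted line the median of all genes (-0.02), and numbers in parentheses the genes tested; the lists at the top have medians up to 1.15 (PAU genes) and those at the bottom down to -0.85 (branched-chain amino acid genes).

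Genes that mark the stage of the cell cycle gave few calls, and several of them were high in sml1Δ replicate 4. None of the 17 genes of the CLB2 cluster was called (median 0.11), and CLB2 had 1945, 1909, 1702 and 1451 in SSDDCS, against 2383, 1760, 1459 and 1159 in sml1Δ. CDC20, the activator of the anaphase-promoting complex, had 1335, 1040, 1331 and 1327 in SSDDCS, against 1511, 1073, 751 and 1499 in sml1Δ. The 8 core histone genes gave no call (median -0.06, or -0.42 without sml1Δ replicate 4), and HTA1 was spread widely in the control, with 2423, 4000.4, 3746 and 5311 in SSDDCS, against 1745, 4746, 6815 and 1921 in sml1Δ. Of the 11 histone chaperone genes none was called (median 0.04). In bulk samples, fewer cells at a stage and less RNA per cell cannot be told apart.

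CLN1, a G1 cyclin, was the 1 called member of 15 genes of the G1/S cluster (6.67% called, against 9.06% of all tested genes). It had 409, 544, 419 and 435 in SSDDCS, against 645, 1269, 1491 and 631 in sml1Δ, a difference of -1.06 (SE 0.28, limma adjusted p 3.52e-03). The call was lost without any one of SSDDCS replicates 1, 3 and 4 (adjusted p 0.014, 0.011 and 0.011) or sml1Δ replicates 2 and 3 (0.028 and 0.044). Its partner CLN2 had 246, 434, 344 and 495 in SSDDCS, against 218, 678, 802 and 436 in sml1Δ, and was not called. SIC1, the inhibitor of B-type cyclin kinase that marks mitotic exit, had 324, 451, 393 and 578 in SSDDCS, against 329, 559, 513 and 3301 in sml1Δ. Its difference of -0.81 (adjusted p 0.027) was -0.09 without that library. AMN1, which counteracts exit from mitosis, had 285, 547, 384 and 619 in SSDDCS, against 516, 1253, 1053 and 3725 in sml1Δ. It was called (-1.52), also without replicate 4 (-1.001, adjusted p 3.7e-04). CDC6, a licensing factor of origins, had 195, 330, 207 and 222 in SSDDCS, against 519, 421, 298 and 1168 in sml1Δ. Its call (-1.17) was lost without sml1Δ replicate 4 (-0.78, adjusted p 0.030). YJL195C (-1.54), an overlapping dubious frame by systematic name, shares its reads with CDC6 in part.

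**Figure D4:**
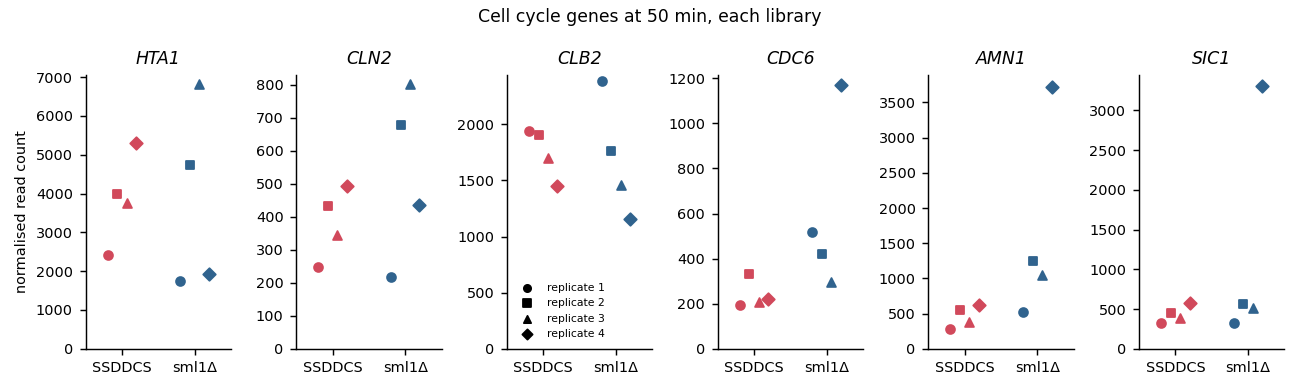
Values of each library for 6 cell cycle genes at 50 min, chosen after their values were seen. The y axes are normalised read counts from 0, SSDDCS is left of sml1Δ in each panel, and the symbol gives the replicate number. The diamond of sml1Δ replicate 4 is far above all other libraries for CDC6 (1168), AMN1 (3725) and SIC1 (3301).

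The inducer and protein synthesis genes served as a further check. GAL1, galactokinase, had 84562, 80443, 89285 and 97413 in SSDDCS, against 86787, 97890, 100625 and 86679 in sml1Δ, and was not called (-0.08). Of the 8 galactose genes GAL7 was called lower (-0.46, or -0.43 with adjusted p 0.011 without sml1Δ replicate 4), with 33293, 31846, 36242 and 42586 in SSDDCS, against 39223, 52318, 54592 and 52450 in sml1Δ. Its call was also lost without SSDDCS replicate 1 or 2 or sml1Δ replicate 2 or 3 (adjusted p 0.011 to 0.019), and 2 galactose genes were called lower with the replicate block. The share of the list called was 12.5%, near the 9.06% of all tested genes. Of 138 ribosomal protein genes RPS9A alone was called. It had 2548, 2901, 3432 and 2720 in SSDDCS, against 4686, 4186, 4554 and 5823 in sml1Δ (difference -0.73). The 15 genes of ribosome biogenesis gave no call (median 0.20).

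Genes next to the chromosomal loci of the factors and markers carried some of the largest differences. YOR203W (5.46), YDR053W (4.63) and YDR008C (4.39) overlap HIS3, DBF4 and TRP1 by systematic name, so their reads can come from those genes. NFS1, the cysteine desulfurase beside LEU2, had 3556, 3664, 2463 and 3486 in SSDDCS, against 1399, 1371, 1411 and 1510 in sml1Δ (difference 1.19). MRM1, a mitochondrial methyltransferase gene beside HIS3, was higher by 0.94, and SIP4, an activator of gluconeogenesis beside DPB11, by 1.32. GWT1, a GPI anchor enzyme on the other side of DPB11, had 199, 218, 215 and 189 in SSDDCS, against 341, 419, 438 and 448 in sml1Δ (difference -0.99). In all, 6 of 22 such neighbours were called higher and 1 lower (31.8% called, against 9.06% of all tested genes).

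The differences at 50 min were next set against those at other times of the same cultures. Of the genes called at 50 min, 14 of the higher and 16 of the lower were already called in the same direction in G1, when galactose had been present for 30 min. Of the higher ones, 3 were the reading frames that overlap HIS3, DBF4 and TRP1. The largest of the others were YAR073W (1.71 at 50 min, 1.45 in G1), IMD2 (1.70, 1.42), of guanine nucleotide synthesis, and YAR075W (1.57, 1.19), which are near-identical copies, so their reads may be shared. The rest, with their differences in G1, were BTN2 (1.37), HSP82 (0.78), CUR1 (0.83), MPO1 (0.62), CPR6 (0.54), KAR2 (0.45), STI1 (0.66) and AHA1 (0.46). The lower ones included LEU1 (-2.14 in G1), BAT1 (-1.77), OAC1 (-2.26), ISU2 (-1.93) and ALD5 (-1.45). For the 345 higher genes the median was 0.06 in G1 and 1.05 at 30 min, then 0.78 at 50 min and 0.54 at 60 min. The 235 lower genes had medians of -0.06, -0.33, -0.39 and -0.29 at these times. Since the genes were chosen at 50 min, these medians are given as a description.

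The change of the strain difference between 30 and 50 min was tested for every gene, and 232 of 6404 (3.62%) passed, 83 up and 149 down. Of the 149, 142 had been called higher at 30 min, and of the 83, 76 had been called lower at 30 min. The change contains the value at 30 min, so these counts are a description. The count was 145 without SSDDCS replicate 2 and 150 without sml1Δ replicate 4, and 556 with the replicate block. THI4 fell by 2.04 on the log2 scale (adjusted p 6.6e-05), with a difference of 4.01 at 30 min and 1.96 at 50 min. The Hsp70 gene SSA3 had 2.76 at 30 min and 1.18 at 50 min, and SSA4 had 2.53 and 1.33. GPD1, which makes glycerol in osmotic stress, had a difference of 1.86 at 30 min and -0.46 at 50 min. BAR1, the protease that degrades alpha factor, had 2.16 and -0.09, but its 811 in sml1Δ replicate 4, against 47.8 to 88.4 in the other control libraries, enters the value at 50 min (0.83 without it). In the other direction, BUB3, of the spindle checkpoint, was lower at 30 min (-0.46) and higher at 50 min (0.50), with 494, 597, 513 and 519 in SSDDCS, against 416, 414, 372 and 303 in sml1Δ. Of the factors, CDC45, SLD2, DBF4 and DPB11 had larger differences at 50 than at 30 min, by 2.195, 1.52, 0.96 and 0.69.

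Between 50 and 60 min no gene passed for a change of the difference (limma, lowest adjusted p 0.9997), with 164 of 6404 at an unadjusted p below 0.05 and none called by DESeq2 or edgeR. HUG1 had differences of 3.22, 3.60 and 3.18 at 30, 50 and 60 min. In SSDDCS it averaged 11.6 ± 4.23 in G1, 315 ± 83.6 at 30 min and 423 ± 110 at 50 min (SD, n = 4), against 5.09 ± 3.61, 32.8 ± 8.999 and 33.3 ± 6.10 in sml1Δ. THI12 was already past its highest mean in SSDDCS, with 744 ± 169 at 35 min and 483 ± 220 at 50 min, against 95.7 ± 26.0 and 59.8 ± 14.6 in sml1Δ. SPL2 averaged 165 ± 65.2 at 30 min and 60.7 ± 7.74 at 50 min in SSDDCS, against 296 ± 84.8 and 312 ± 85.6 in sml1Δ. Its change of difference from 30 to 50 min was -1.44 and did not pass (adjusted p 0.013).

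**Figure D5:**
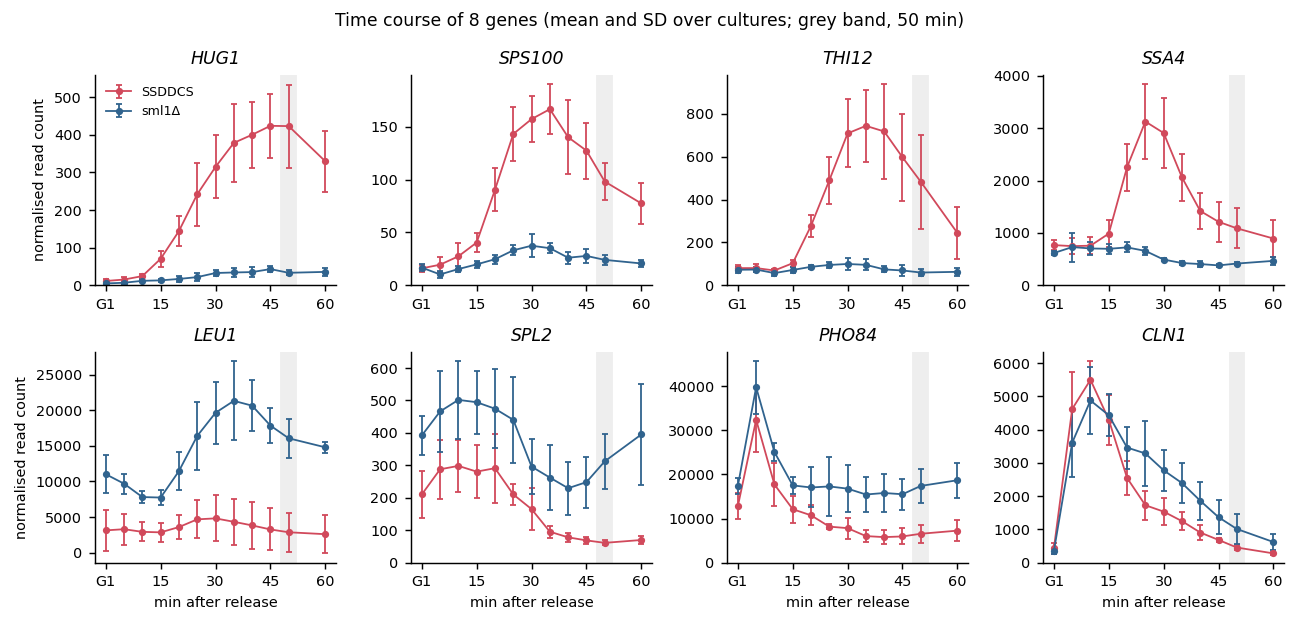
Mean normalised read counts of 8 genes from G1 to 60 min after release, with error bars of 1 SD over 4 cultures (3 at 25 min), SSDDCS in red and sml1Δ in blue; the grey band marks 50 min. HUG1 has 423 in SSDDCS at 50 min, within 1 SD of its highest mean, SPS100, THI12 and SSA4 have passed theirs, and LEU1 is lower in SSDDCS from G1 on.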

How the data were processed

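RNA was measured by RNA-seq in 94 libraries of budding yeast, 24 strain-by-time groups, of which 4 SSDDCS and 4 sml1Δ libraries of 50 min are reported here. The signal values deposited by the authors are reads per gene divided by a DESeq2 size factor for each library. The labels and the study's methods name different aligners (TopHat2 2.0.6 in the submitters' processing notes) and library kits, neither of which is described as using strand, and the build is sacCer3 (R64). Whole reads were recovered by rescaling in 100% of values (tolerance 0.01 reads), with 8119387 to 21677438 reads per library (median 10031425). The table had 96 columns, and 2 that matched no sample were not used.

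Values were taken as log2(value + 1) and fitted with limma 3.58.1 (R 4.3.3, trended variance) over all 94 libraries with 1 mean for each strain and time. A gene was tested if its mean over the libraries reached 10 (6414 genes, 30 left out), p-values were adjusted by Benjamini-Hochberg over all of them, and genes were called at an adjusted p below 0.01. The 6 factors and 4 markers were left out of the counts. The cultures are described as biological replicates. The p-values rest on a spread shared by all 24 strain-by-time groups, not on that of the 50 min libraries alone. Libraries of one culture at different times were treated as independent, although their estimated correlation was 0.376. With that correlation in the fit, 558 genes were called at 50 min.

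Libraries of the same replicate number deviated together from their group means at 50 min (correlations 0.614, 0.155, 0.178 and 0.453), all above 0.1. Of the 12 pairs of unlike numbers 3 were above it too (0.126 to 0.233). SSDDCS replicate 2 went more with sml1Δ replicate 1 (0.233) than with its own number (0.155). By the limit of 0.1 for every same-numbered pair the numbers were taken to pair the cultures. A fit with the number as a block was run beside the unblocked one, which gave the main values. The alternatives also included quantile normalization, scaling to equal totals, omitting the filter, pseudocounts of 5 and 0.1, a correlation between libraries of a culture, the 8 libraries alone, each library left out, exchanged labels, and DESeq2 1.42.0 and edgeR 4.0.16 on the recovered reads.

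Genes named by rule were the factors and markers, the 10 largest separated increases and decreases averaging 50 or more in one strain, up to 3 called members and the first member of each list, 7 chosen genes of meiosis, thiamine and the cycle, the 5 largest changes of each sign from 30 to 50 min, and called neighbours of the factor and marker genes. Other members are named to show what the lists hold and were chosen after their values were seen. The members and lists were chosen with earlier results of these data known. Of 6444 genes, 5844 were placed on the RefSeq R64 annotation by name and 600 were not. Motifs were searched on both strands in the 500 bases before the start codon. Uniqueness is the share of 50-base stretches of a gene that occur once in the genome. SML1 was not analysed here, and some measured items are not reported here.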

Additional observations from a re-analysis of the deposited data

Results flagged for a closer look

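Within 198 groups of 4 libraries, 22 had 1 library whose gap to the nearest other exceeded Dixon's 95% limit as a share of the group's range, where chance gives about 1 in 20. The ratio of gap to range is given for each. In SSDDCS, replicate 3 stood above the others for LEU1 (0.952), BAT1 (0.882) and OAC1 (0.905) and below them for NFS1 (0.852). Replicate 1 was high for CHA1 (0.896) and in reads in genes (0.861), replicate 2 was high for FRE2 (0.898) and low for CDC20 (0.971), and replicate 4 was high for TRP1 (0.845) and HXT14 (0.908). In sml1Δ, replicate 4 was high for SIC1 (0.923), BAR1 (0.947), IME1 (0.872), MF(ALPHA)1 (0.896) and CAC2 (0.834), a subunit of the chromatin assembly factor, and low for URA3 (0.933) and ABF1 (0.871). Replicate 1 of sml1Δ was high in reads in genes (0.919) and low for GAL7 (0.852) and PAU15 (0.947), and replicate 3 was high for ALD5 (0.919) and SSA4 (0.931).

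The strain difference changed between 30 and 50 min, by limma's test of that change, for 27 of the named genes, given as the difference at 50 min minus that at 30 min on the log2 scale. Among factors and markers it was larger at 50 min for CDC45 (2.195), SLD2 (1.52), DBF4 (0.96), TRP1 (0.74), DPB11 (0.69) and HIS3 (0.62). The same held for the overlapping frames YDR053W (0.88), YOR203W (0.80) and YDR008C (0.73), for GWT1 (0.94), and for BUB3 (0.96), YEL014C (0.85), SAP185 (0.84), JJJ1 (0.83) and ABF1 (0.75). It moved down for GPD1 (-2.32) and its overlapping frame YDL023C (-2.28), BAR1 (-2.26), THI4 (-2.04), PYK2 (-1.85), YJL195C (-1.79), CDC6 (-1.59), SSA3 (-1.58), SSA4 (-1.20), HXT11 (-0.96), HXT9 (-0.84) and HXT1 (-0.68).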

How the results depend on the processing

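The count of 580 genes called at 50 min was 894 with the replicate block, 79 in a fit to the 8 libraries alone and 85 in that fit with the block, of which 71.8% were higher (61 higher, 24 lower), and leaving out 1 library gave 406 to 622. With the 50 and 60 min libraries of sml1Δ replicate 4 both left out, a choice made after seeing the data, it was 484. Quantile normalization gave a count of 454 at 50 min. The count of 232 changes from 30 to 50 min was 556 with the block and 904 with a correlation between libraries of a culture, and leaving out 1 library gave 145 to 287, the lowest without SSDDCS replicate 2 (145) and sml1Δ replicate 4 (150). The count between 50 and 60 min was 0 under every alternative run. Of the 98 named genes none changed direction past the threshold, and 35 calls were lost in the fit to the 8 libraries alone and 8 with quantile normalization. The block added calls for SPS1, IME2 and MF(ALPHA)1 and changed no other call among the named genes. SIC1, not called by limma, was called by DESeq2 (-1.43) and edgeR (-1.39). At these depths genes near 10 normalised read counts rest on few reads. The cause of these shifts was not tested.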
